A study of Mus musculus with 18 samples.

Results

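The genes described here code for proteoglycans, which are core proteins that carry long sulfated sugar chains, and for matricellular proteins, which are secreted into the matrix and act on cells more than they build fibres. The 10 genes were chosen by name: the cell-surface chondroitin sulfate proteoglycan Cspg4, the small leucine-rich proteoglycans Bgn (biglycan) and Dcn (decorin), the matricellular proteins Sparc, Postn (periostin) and Tnc (tenascin-C), the epidermal growth factor repeat proteins Npnt (nephronectin) and Egfl6, and the cell-surface heparan sulfate proteoglycans Sdc1 and Sdc4 (syndecans). They are 10 of the 18193 genes that the array reports through probe sets with a single gene symbol, and they hold 25 of its 45101 probe sets. For 9 of the 10 genes at least 1 probe set was bright enough to be tested, and 22 of the 25 probe sets passed. Dcn was the gene that had none.

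In the hair follicle, stem cells rest in the bulge, a stretch of outer root sheath below the sebaceous gland. Bulge keratinocytes make part of their own basement membrane. Nephronectin deposited there is bound by integrin α8β1 of the arrector pili muscle cells that anchor on the bulge. EGFL6 shares the domain layout of nephronectin and is likewise bound by integrins. Syndecans are the usual heparan sulfate carriers of keratinocytes, and CSPG4, also called NG2, is widely used as a marker of pericytes and glial progenitors.

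All animals had the genotype K5tTA x pTRE-H2B-GFP, from an FvB parent and a CD1 parent, so a keratin 5 promoter drove a histone-GFP fusion in basal epithelial cells. Doxycycline in the food, 1 g per kg, switched the fusion off, and each later division diluted it. Mice were chased from postnatal day (PD) 18 to PD21 or from PD22 to PD25. At each age 3 mice were used, and each mouse gave 3 sorted fractions: non-bulge cells, bulge cells with 0 divisions during the chase (undivided) and bulge cells with 1 to 2 divisions (divided). Sorting used CD34, α6-integrin and GFP. The 6 groups of 3 arrays thus differ in fraction and age, and no fraction was free of the transgenes or of doxycycline. Every array held RNA of a mixed cell suspension, in which fewer cells of a type and less RNA per cell cannot be told apart. The study asked how bulge cells with different division histories differ in 2 phases of the hair cycle.

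Signals were scaled by the authors to a common trimmed mean of 500 on each array, and array medians ran from 60.3 to 116.6. The 3′ to 5′ signal ratio of the Gapdh control probe sets ran from 3.1 to 11.6. In mouse 3 at PD21 it was 8.77 in non-bulge, 3.21 in undivided and 9.67 in divided cells. The part of this ratio in the differences below was not tested. The number of mice, 3 in each group, limits the precision. The arrays formed 2 sets of 9 on their control probe sets. The sets held whole mice of both ages, so differences between fractions of 1 mouse lie within a set. Set 1 held mice 1 and 2 of PD21 and mouse 1 of PD25. Set 2 held mouse 3 of PD21 and mice 2 and 3 of PD25. The ages were thus unbalanced over the sets, and an age difference within a set has 1 mouse at 1 of the ages. Bulge markers checked the labels. Of 10 bulge markers, 9 were called above the non-bulge level in the undivided bulge at either age, and the mRNA of the sorting antigen Cd34 rose from 4.52 ± 0.73 to 12.73 ± 0.36 (log2 scale, SD, n = 3) at PD21. The divided fraction at PD21 stood apart from the other bulge fractions: its Cd34 level was 8.93 ± 0.92, 8 of the 10 bulge markers were lower in it than in undivided cells, and Gata3 and Ly6d, 2 of 9 markers of non-bulge epidermis, were higher. In that group the summed signal of the bulge markers ran from 36070 to 66390, against 69700 to 150000 in undivided cells. The summed signal of the non-bulge markers ran from 46490 to 104000, against 32290 to 72970. In that group 4 of the 10 bulge markers were still called above the non-bulge level, where 0.182% of all genes were called. The results on the PD21 divided fraction below come from the same arrays, and the part of these markers in them was not tested.

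Undivided bulge cells carried more transcript of 6 of the 9 tested genes than non-bulge cells at both ages. At PD21 these were Cspg4, Bgn, Egfl6, Sparc, Npnt and Postn, and at PD25 they were Cspg4, Bgn, Egfl6, Npnt, Postn and Tnc. Differences are given on the log2(signal + 16) scale with standard errors of a limma fit to all 18 arrays, and a gene was called at a Benjamini-Hochberg adjusted p under 0.05 over 11569 genes. None of the 9 genes was called lower in either comparison. Of all genes tested, 11.0% were called at PD21 and 10.5% at PD25, in either direction. The median difference over the 9 genes was 1.73 at PD21 and 1.64 at PD25, where the medians over all genes tested were -0.05 and -0.02. The bulge fractions of an age were compared with the same non-bulge arrays, so the comparisons of an age are not independent.

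**Figure D1:**
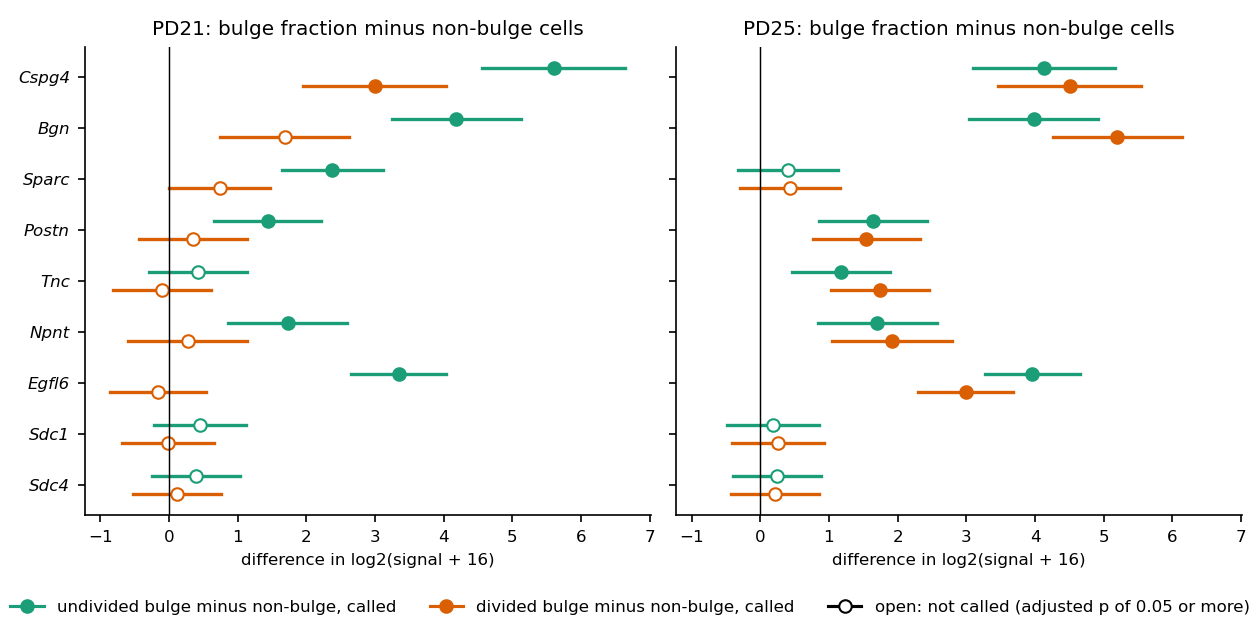
Differences of undivided (green) and divided (orange) bulge cells from non-bulge cells at PD21 (left) and PD25 (right), in log2(signal + 16), for the 9 tested genes. Points are the fitted differences with 3 mice per group, lines their 95% confidence intervals, and open points were not called. At PD21 the green points of 6 genes are filled and the orange point of Cspg4 alone is filled, whereas at PD25 both fractions have 6 filled points.

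Cspg4, the large transmembrane chondroitin sulfate proteoglycan, had the largest difference of the 9 genes between undivided bulge and non-bulge cells at PD21. In non-bulge cells at PD21 its signal was 329, 20.8 and 294 in mice 1, 2 and 3. In undivided bulge cells of these mice it was 9483, 6749.7 and 6989.7. In divided bulge cells it was 879, 1079.8 and 2019.7. The 3 groups did not overlap, with divided cells between the others, and mouse 2 had by far the lowest non-bulge value. At PD25 the signal was 275, 318 and 312 in non-bulge cells. It was 5741, 5692 and 5229.9 in undivided bulge cells. It was 6819.5, 6794 and 7996 in divided bulge cells. Both bulge fractions then lay far above non-bulge cells, and every divided value exceeded every undivided value. Ordered by mean log2 level, the groups ran from non-bulge at PD21 (7.30 ± 1.82, SD, n = 3) and at PD25 (8.31 ± 0.11) through divided cells at PD21 (10.30 ± 0.62) to undivided cells at PD25 (12.44 ± 0.07), divided cells at PD25 (12.81 ± 0.13) and undivided cells at PD21 (12.90 ± 0.27). Neither the step between the non-bulge groups nor the step from undivided to divided cells at PD25 passed the test, and the last 2 groups lay within each other's spread.

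The fitted difference of Cspg4 between undivided bulge and non-bulge cells was 5.60 ± 0.50 at PD21 (48.5-fold in signal + 16, limma adjusted p = 3.69e-08) and 4.13 ± 0.50 at PD25 (17.5-fold, adjusted p = 2.58e-06). Divided cells were 3.00 ± 0.50 above non-bulge cells at PD21 (adjusted p = 0.00696) and 4.50 ± 0.50 above them at PD25 (adjusted p = 1.31e-06). Both PD21 values rested partly on the low non-bulge array of mouse 2. Without that array the difference was 4.55 ± 0.28 for undivided cells (adjusted p = 9.33e-10) and 1.95 ± 0.28 for divided cells (adjusted p = 0.00307). Without the divided array of mouse 3 the divided value was 2.65 and no longer called (adjusted p = 0.101). The second Cspg4 probe set gave 2.56 for undivided cells at PD21 and 3.26 at PD25, both called, and its 0.95 for divided cells at PD21 was not called.

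**Figure D2:**
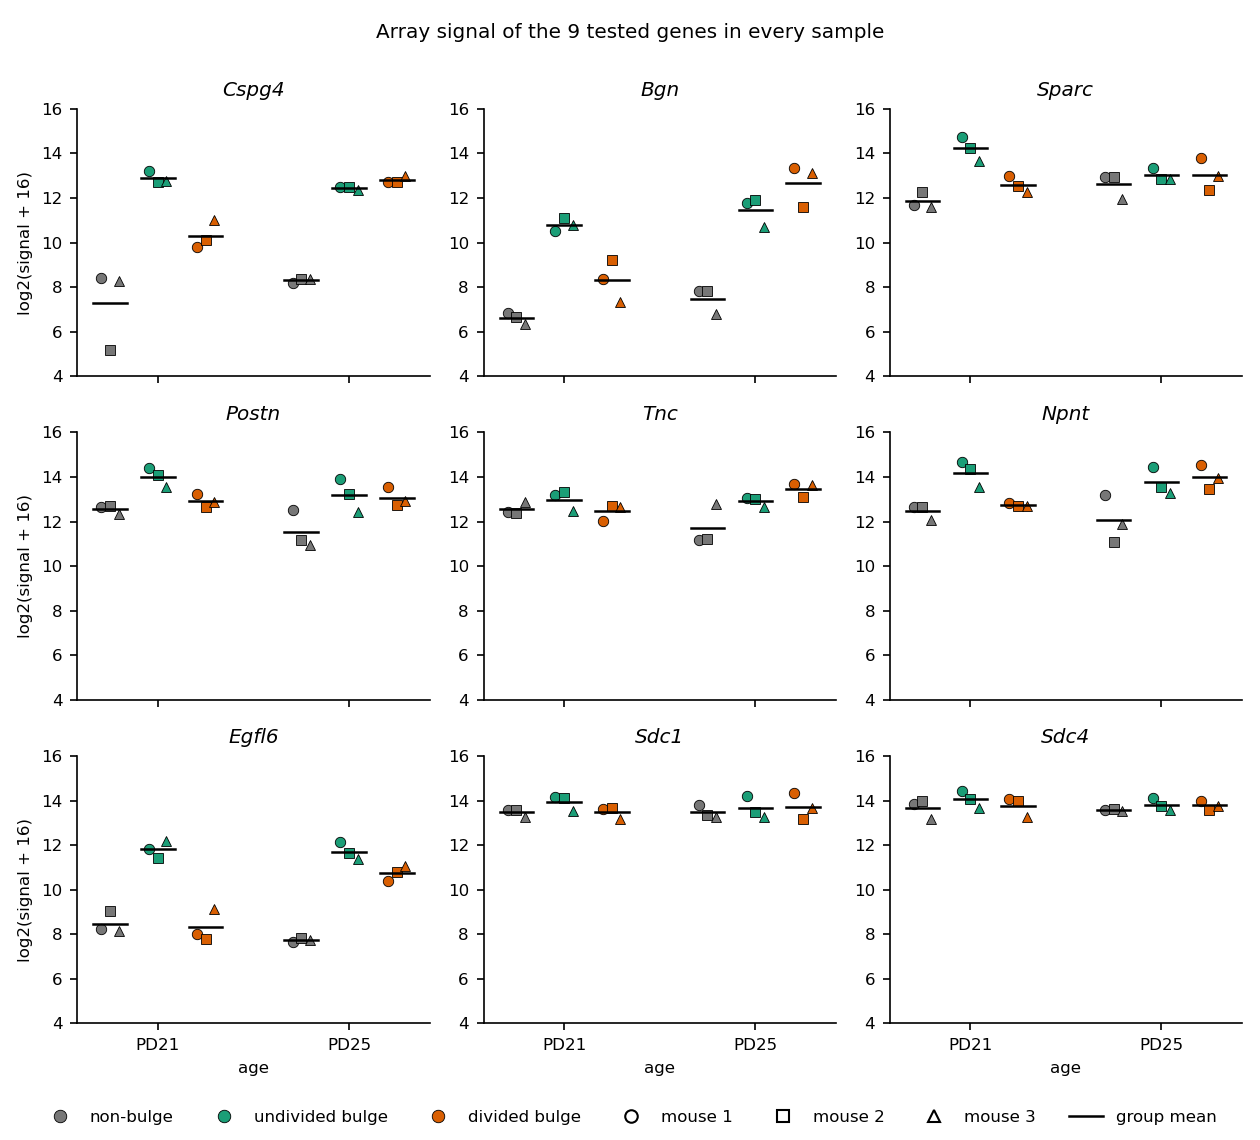
Level of each tested gene in all 18 samples, as log2(signal + 16) of the probe set that stands for the gene, by age. Colours give the fraction, symbols the mouse and bars the group mean of 3 mice. Cspg4, Bgn and Egfl6 span over 4 log2 units between samples, while all Sdc1 and Sdc4 points stay between 13 and 15.

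Biglycan, a small secreted proteoglycan that binds collagen and growth factors, had low signals outside the bulge. In non-bulge cells at PD21 the Bgn signal was 100.4, 84.9 and 65.8 in mice 1, 2 and 3. In undivided bulge cells it was 1467, 2155 and 1769. In divided bulge cells it was 312, 581 and 148. The 3 groups were again separate at PD21, with divided cells in the middle. At PD25 non-bulge cells read 208, 211 and 95.2. Undivided bulge cells read 3493, 3814 and 1641. Divided bulge cells read 10230.5, 3090.5 and 8810.5. The divided fraction at PD25 thus held the highest Bgn signals of the series, in mice 1 and 3, whereas its mouse 2 lay below 2 of the undivided values. The group means on the log2 scale rose from 7.48 ± 0.59 in non-bulge cells to 11.46 ± 0.66 in undivided and 12.68 ± 0.94 in divided cells at PD25.

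In the undivided bulge Bgn exceeded the non-bulge level by 4.18 ± 0.46 at PD21 (18.2-fold in signal + 16, limma adjusted p = 6.02e-07) and by 3.98 ± 0.46 at PD25 (adjusted p = 1.17e-06). Divided cells were 5.20 ± 0.46 above non-bulge cells at PD25 (36.8-fold, adjusted p = 3.71e-08). At PD21 their difference of 1.69 ± 0.46 missed the threshold over all genes (adjusted p = 0.259), with an unadjusted p of 0.00114 and a higher value in 3 of 3 mice. Another Bgn probe set gave 2.07 for the same comparison and was called when all probe sets were tested (adjusted p = 0.0302), a test that called 0.134% of all probe sets.

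Decorin, the close relative of biglycan, is abundant in dermal fibroblasts. Its signals were near the floor of the array. The brighter Dcn probe set reached a signal of 110.5 at most and exceeded the median of its array on 1 of 18 arrays, and the other reached 71.9 and exceeded it on 0. Fitted without the filter on dim probe sets, Dcn was not called in any of the 11 comparisons, and at PD21 its difference between the undivided bulge and the non-bulge fraction was -1.22 ± 0.63 (adjusted p = 0.349). A gene so dim has no reliable fold change here.

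Egfl6, a secreted matrix protein with epidermal growth factor repeats and a MAM domain, was low outside the bulge at both ages. In non-bulge cells at PD21 its signal was 282, 506 and 269 in mice 1, 2 and 3. In undivided bulge cells it was 3638, 2766 and 4572. In divided bulge cells it was 239, 208.5 and 539.9. Divided cells overlapped non-bulge cells, and both lay below every undivided value. At PD25 the non-bulge signals were 186, 215 and 198. Undivided bulge cells read 4497.5, 3166 and 2606. Divided bulge cells read 1308, 1747 and 2131. At this age divided cells lay above all non-bulge values and below all undivided values.

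Undivided bulge cells exceeded non-bulge cells in Egfl6 by 3.35 ± 0.34 at PD21 (10.2-fold in signal + 16, limma adjusted p = 1.93e-07) and by 3.96 ± 0.34 at PD25 (15.6-fold, limma adjusted p = 1.91e-08). The divided fraction at PD21 was -0.16 ± 0.34 from the non-bulge level (adjusted p = 1, lower in 2 of 3 mice). At PD25 they were 2.99 ± 0.34 higher (adjusted p = 1.44e-06, higher in 3 of 3 mice). Ordered by mean log2 level, non-bulge cells at PD25 (7.75 ± 0.10), divided cells at PD21 (8.31 ± 0.71) and non-bulge cells at PD21 (8.47 ± 0.49) formed the low end. The divided values overlapped both non-bulge groups, which did not overlap each other and did not differ by the test (adjusted p = 0.998). Divided cells at PD25 (10.74 ± 0.35) stood alone, and undivided cells at PD25 (11.71 ± 0.40) and PD21 (11.81 ± 0.36) differed by less than their SD.

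Nephronectin, the bulge basement membrane ligand of integrin α8β1, was bright in every fraction. In non-bulge cells at PD21 the Npnt signal was 6480.1, 6439.6 and 4315 in mice 1, 2 and 3. In undivided bulge cells it was 25839, 21224 and 12027. In divided bulge cells it was 7374.5, 6563.5 and 6622. Divided cells lay just above the non-bulge cells of the same mice, and undivided cells lay above both. At PD25 the 3 non-bulge values were 9382, 2140.3 and 3835. The undivided values were 22557.5, 11939 and 10024. The divided values were 23770.5, 11091 and 15907. Every bulge value at PD25 exceeded every non-bulge value, and the bulge fractions overlapped.

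The Npnt difference between undivided bulge and non-bulge cells was 1.73 ± 0.42 at PD21 (limma adjusted p = 0.00653) and 1.71 ± 0.42 at PD25 (adjusted p = 0.00751), and divided cells at PD25 were 1.92 ± 0.42 higher (adjusted p = 0.00345). Without the undivided array of mouse 1 the PD21 difference was 1.50 and its adjusted p 0.0509. The PD25 difference of undivided cells lost its call without the non-bulge array of mouse 2 or the undivided array of mouse 1, with an adjusted p of 0.0807 at most. All 5 Npnt probe sets were called higher in undivided cells at both ages, from 1.73 to 3.16 at PD21 and from 1.71 to 2.38 at PD25, and the probe set that stands for the gene gave the smallest difference at each age.

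Cspg4, Bgn and Egfl6 had the largest bulge differences and moved together over the samples. The 250 bases before the RefSeq start of each are shown, with Sdc1 beside them. The differences of Sdc1 were small and none was called in the main fit. Its PD21 difference between undivided and non-bulge cells was called in 3 of 18 other settings (limma adjusted p of 0.0287 at least). That between divided and undivided cells at PD21 was called in 2 of 18. The windows come from RefSeq on GRCm38.p6, are written 5′ to 3′ on the strand of the gene, and 9 of the 10 genes had at least 1 window there. Capitals mark matches, on either strand, to any of 7 short motifs that were searched. These were the GC box GGGCGG, the letters CTTTGA of TCF/LEF factors, the letters ATTGTT of SOX factors, the letters TGTGGT of RUNX factors, the homeodomain core TAATTA, the AP-1 site TGANTCA and the TATA box TATAAA. Overlapping matches were each counted.
Cspg4, chr9:56864854-56865103, plus strand: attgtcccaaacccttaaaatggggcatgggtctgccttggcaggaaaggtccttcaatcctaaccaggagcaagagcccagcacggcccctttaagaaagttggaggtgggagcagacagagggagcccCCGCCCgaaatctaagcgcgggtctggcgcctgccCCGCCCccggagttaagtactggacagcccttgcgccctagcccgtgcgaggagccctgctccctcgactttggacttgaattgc
Bgn, chrX:73483351-73483600, plus strand: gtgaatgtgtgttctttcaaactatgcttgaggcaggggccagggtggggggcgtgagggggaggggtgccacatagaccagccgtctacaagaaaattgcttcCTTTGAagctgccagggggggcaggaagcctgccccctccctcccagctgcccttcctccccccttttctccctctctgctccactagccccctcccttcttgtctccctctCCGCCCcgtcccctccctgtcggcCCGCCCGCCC
Egfl6, chrX:166585717-166585966, minus strand: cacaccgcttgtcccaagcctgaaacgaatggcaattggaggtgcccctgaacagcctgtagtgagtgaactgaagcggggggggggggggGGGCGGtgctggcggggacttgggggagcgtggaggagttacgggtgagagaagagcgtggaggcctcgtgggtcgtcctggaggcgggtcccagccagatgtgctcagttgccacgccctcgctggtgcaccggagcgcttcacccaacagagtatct
Sdc1, chr12:8771146-8771395, plus strand: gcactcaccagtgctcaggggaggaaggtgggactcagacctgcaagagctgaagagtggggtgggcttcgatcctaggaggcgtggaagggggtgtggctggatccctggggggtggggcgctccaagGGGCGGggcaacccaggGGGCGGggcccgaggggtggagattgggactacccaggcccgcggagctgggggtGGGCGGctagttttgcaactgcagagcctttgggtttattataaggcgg
All capitals in these 4 windows are GC boxes except 1 TCF/LEF match of Bgn, which starts 146 bases before the RefSeq start. The GC box was found in 7 of the 9 genes with a window and in 32.7% of all 32851 windows. A gene was counted if any of its windows matched, while the share of all windows counts each window, so these are unlike measures. Postn, Tnc and Npnt had 2 windows each, and Npnt had a GC box in 1 of its 2. The TCF/LEF letters occurred in 1 of the 9 genes and in 13.8% of all windows. The SOX letters occurred in Postn alone (9.42% of all windows) and the TATA letters in Postn and Tnc (12.4%). The RUNX, homeodomain and AP-1 letters occurred in none of the 9 genes, and in 14.0%, 4.84% and 6.75% of all windows. The GC box was in all 4 windows shown.

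SPARC, a collagen-binding matricellular glycoprotein, was called in the undivided bulge at PD21 and not at PD25. At PD21 the Sparc signal was 3287, 4919.7 and 3055 in non-bulge cells. It was 27655, 19620.1 and 12991 in undivided bulge cells. It was 7989, 5862 and 4917 in divided bulge cells. Undivided cells lay above all others, and divided and non-bulge cells overlapped. At PD25 the values were 7778, 7953 and 3916 in non-bulge cells. They were 10295, 7397 and 7447 in undivided bulge cells. They were 14008, 5236 and 8143 in divided bulge cells. All 3 fractions overlapped at this age.

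The Sparc difference between undivided bulge and non-bulge cells was 2.38 ± 0.35 at PD21 (5.21-fold in signal + 16, limma adjusted p = 4.01e-05) and 0.41 ± 0.35 at PD25 (adjusted p = 0.632). The change of this difference between the ages was -1.97 ± 0.50 (unadjusted p = 0.000636, adjusted p = 1), and with the mouse as a replicate block its adjusted p was 0.0457, in a fit that called 0.0173% of all genes. The level from PD21 to PD25 differed by -1.21 ± 0.35 in undivided cells (adjusted p = 0.222) and by 0.76 ± 0.35 in non-bulge cells (adjusted p = 0.998), and neither passed the test. Within the 2 array sets the difference of undivided cells between the ages was -1.18 and -0.81, each with 1 mouse at 1 of the ages. The second tested Sparc probe set gave 2.85 at PD21 and 0.62 at PD25, with the same calls.

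Periostin, which binds integrins and crosslinking enzymes in the matrix, was bright throughout. The Postn signal at PD21 was 6503, 6535 and 5174.5 in non-bulge cells. It was 21591, 17177 and 11835 in undivided bulge cells. It was 9615, 6343 and 7542.5 in divided bulge cells. Undivided cells were separate from both other fractions. At PD25 the values were 5848, 2272 and 1929 in non-bulge cells. In undivided bulge cells they were 15261, 9497 and 5436. The divided fraction read 12035, 6909 and 7729. The lowest undivided value, in mouse 3, fell below the non-bulge value of mouse 1, while within each mouse both bulge fractions exceeded the non-bulge fraction. The difference of undivided cells was 1.44 ± 0.38 at PD21 (limma adjusted p = 0.0124) and 1.64 ± 0.38 at PD25 (adjusted p = 0.00437), and that of divided cells was 1.54 ± 0.38 at PD25 (adjusted p = 0.00865). The PD21 call was lost without the undivided array of mouse 1 (adjusted p = 0.0794), and the divided call at PD25 was lost without any 1 of 3 arrays, which were the non-bulge arrays of mice 2 and 3 and the divided array of mouse 1 (adjusted p of 0.0719 at most).

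Tenascin-C, a large hexameric glycoprotein of remodelling matrix, was called at PD25 and not at PD21. At PD21 the Tnc signal was 5543, 5331.5 and 7444 in non-bulge cells. It was 9355, 10096 and 5587 in undivided bulge cells. It was 4121, 6609 and 6510.2 in divided bulge cells. These groups overlapped. At PD25 it was 2296, 2372 and 6946 in non-bulge cells. In undivided bulge cells it was 8413, 8253 and 6388. The divided fraction read 13161, 8730.1 and 12651. Mouse 3 had a non-bulge value above its undivided value, and divided cells lay above all others. Tnc was 1.18 ± 0.35 higher in undivided cells at PD25 (limma adjusted p = 0.0261, higher in 2 of 3 mice) and 1.75 ± 0.35 higher in divided cells (adjusted p = 0.00128, 3 of 3 mice). The call for undivided cells was lost without either non-bulge array of mice 1 and 2 or without either undivided array of these mice, with an adjusted p of up to 0.174. A second Tnc probe set exceeded the array median on 9 of 18 arrays and gave -0.35 and -0.28 in undivided and divided cells at PD25, so the 2 probe sets of this gene disagree. With their mean, the differences were 0.41 (adjusted p = 0.656) and 0.74 (adjusted p = 0.345). The change of the Tnc difference of undivided cells between the ages was 0.76 ± 0.49 and was not called (adjusted p = 1).

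The syndecans were bright in every sample and differed little. The Sdc1 signal ran from 9118 to 20873 over the 18 arrays, and the Sdc4 signal from 9174 to 22019.5, and on the probe set that stands for each gene the groups overlapped in every comparison. On 2 of the 3 other Sdc1 probe sets and on the other Sdc4 probe set, all undivided values at PD21 lay above all non-bulge values. The share of all probe sets separated in this way is not given here, so this count has no background. When each was tested, none of the 4 Sdc1 and 2 Sdc4 probe sets was called in that comparison. Sdc1 in undivided cells was 0.46 ± 0.32 above the non-bulge level at PD21, with a 95% interval from -0.21 to 1.12, and Sdc4 was 0.40 ± 0.31 higher, from -0.25 to 1.04. Neither was called by the fit without a block (adjusted p = 0.454 and 0.512). Within each of the 3 mice at PD21 both syndecans were higher in undivided cells, and with the mouse as a replicate block limma gave adjusted p-values of 0.0287 for Sdc1 and 0.0415 for Sdc4, where the blocked fit called 16.6% of all genes. At PD25 the differences were 0.19 ± 0.32 and 0.25 ± 0.31, and neither was called with or without the block. The 95% intervals at PD25 reached up to 0.86 and 0.89.

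Division status at PD21 separated most of the genes that marked the bulge. In divided compared with undivided bulge cells 5 of the 9 genes were called lower and none higher. These were Egfl6 (-3.50 ± 0.34, 11.4-fold, limma adjusted p = 1.76e-06), Cspg4 (-2.61 ± 0.50), Bgn (-2.50 ± 0.46), Sparc (-1.64 ± 0.35) and Npnt (-1.45 ± 0.42, adjusted p = 0.0308), each lower in 3 of 3 mice. Of all genes 8.28% were called in that comparison in either direction. Postn was lower by 1.08 ± 0.38 without passing (adjusted p = 0.0823), and it passed with the mouse as a replicate block (adjusted p = 0.000378), as did Sdc1 (-0.47 ± 0.32 in the fit without a block, adjusted p = 0.0294 with it). The blocked fit called 13.3% of all genes there. The Npnt call was lost without any 1 of the arrays compared except the undivided array of mouse 3, with an adjusted p of up to 0.156. When each probe set was tested, 5 of 5 Npnt probe sets were called lower, from -2.33 to -1.45. For Bgn 2 of 3 were called (-2.50 to -1.64) and for Cspg4 1 of 2 (-2.61 to -1.61). The share of all probe sets called in that comparison is not given here. Against non-bulge cells of the same age, divided cells were called for 1 of the 9 genes, Cspg4, where 0.182% of all genes were called. On the linear scale, the Cspg4 signal of divided cells at PD21 stood 6.01%, 15.7% and 25.8% of the way from the non-bulge to the undivided value of the same mouse. For Bgn this position was 15.5%, 23.9% and 4.81%, and for Npnt 4.62%, 0.838% and 29.9%. The divided fraction at PD21 also held less of the bulge markers and more of 2 non-bulge markers, as given above.

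At PD25 divided and undivided bulge cells were not told apart. None of the 9 genes and 0% of all genes were called by limma, with 2 of the 9 and 635 of all genes at an unadjusted p under 0.05. These 2 were Bgn, 1.22 ± 0.46 higher in divided cells (95% interval 0.28 to 2.16, higher in 2 of 3 mice), and Egfl6, lower by 0.97 ± 0.34 (95% interval -1.66 to -0.28, lower in 3 of 3 mice). For Cspg4 the interval ran from -0.67 to 1.41 and for Npnt from -0.66 to 1.08. Against non-bulge cells divided cells were called higher for 6 of the 9 genes, where 8.87% of all genes were called in either direction.

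**Figure D3:**
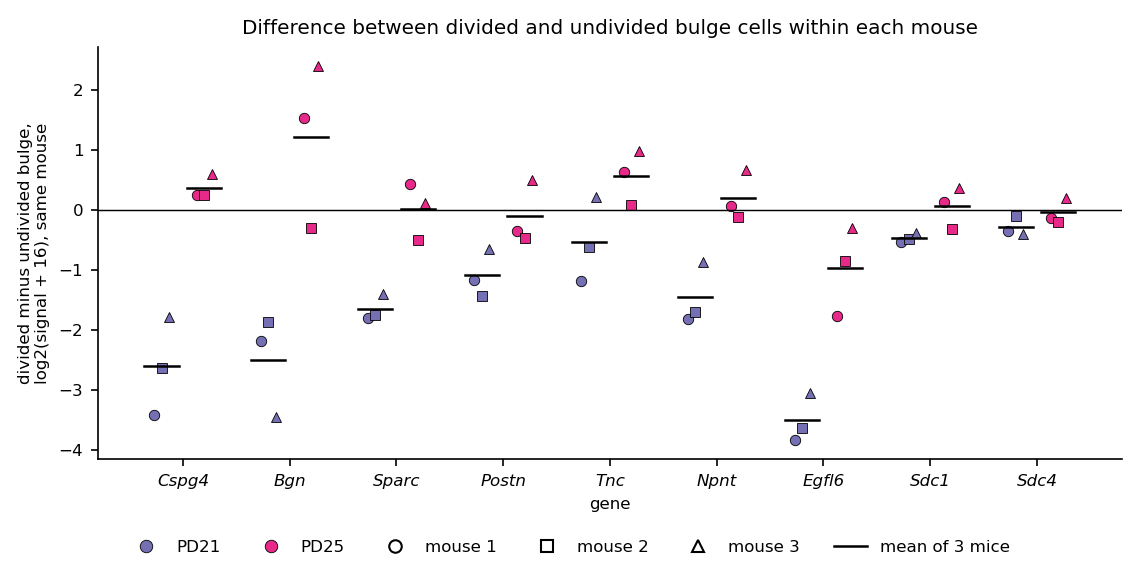
Difference between divided and undivided bulge cells of the same mouse, in log2(signal + 16), for each tested gene at PD21 (purple) and PD25 (pink). Symbols are mice and bars the mean of 3 mice. All PD21 points of Cspg4, Bgn, Sparc, Postn, Npnt, Egfl6, Sdc1 and Sdc4 lie below 0, whereas the PD25 points of these genes other than Cspg4 and Egfl6 fall on both sides of 0.

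The difference between divided and undivided cells changed with age for 3 of the 9 genes. The change was 3.71 ± 0.64 for Bgn (limma adjusted p = 0.0057), 2.98 ± 0.71 for Cspg4 (adjusted p = 0.0356) and 2.54 ± 0.47 for Egfl6 (adjusted p = 0.00879), where 1.18% of all genes were called. With the mouse as a replicate block 6 of the 9 genes passed, and the 3 added were Npnt (1.66, adjusted p = 0.00212), Sparc (1.67, adjusted p = 0.00611) and Postn (0.98, adjusted p = 0.0382). The blocked fit called 4.37% of all genes, so its background was higher as well. The Cspg4 call was fragile: it held in 11 of 24 other settings, and leaving out 1 array lost it for 10 of the 12 arrays that enter, with an adjusted p of up to 0.108. The Bgn and Egfl6 changes were called in every setting tried. Of single probe sets, 2 of 3 were called for Bgn (2.62 to 3.71) and 1 of 2 for Cspg4 (1.63 to 2.98). For Npnt 2 of 5 were called and for Sparc 1 of 2. The share of all probe sets called for this change is not given here.

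Between the ages, the divided fraction was the one in which the genes were called. In divided cells the levels at PD25 were above those at PD21 for Bgn (4.37 ± 0.46, 20.6-fold in signal + 16, limma adjusted p = 2.82e-06), Cspg4 (2.52 ± 0.50, adjusted p = 0.002) and Egfl6 (2.43 ± 0.34, adjusted p = 5.02e-05). Of all genes 7.84% were called there. Within the 2 array sets these differences were 4.53 and 5.00 for Bgn, 2.79 and 1.86 for Cspg4, and 2.47 and 1.81 for Egfl6. Each of these values rests on 1 mouse at 1 of the ages. Npnt was 1.24 ± 0.42 higher at PD25 in divided cells (adjusted p = 0.0773), and Tnc 1.01 ± 0.35 higher (adjusted p = 0.0791). The fit with the replicate block gave Npnt an adjusted p of 0.0404 and called 7.94% of all genes. Without the block, 8 of the 10 bulge markers were also called higher in divided cells at PD25 than at PD21, and none lower. Of 9 markers of non-bulge epidermis, 2 were called lower there, Gata3 and Ly6d, and none higher. The part of these markers in the differences of the genes was not tested. Of the single probe sets in divided cells between the ages, 3 of 3 were called higher for Bgn and 1 of 2 for Cspg4. For Egfl6 1 of 1 was called, for Npnt 4 of 5 and for Tnc 0 of 2. That test called 6.16% of all probe sets. In undivided cells none of the 9 genes and 0.0951% of all genes were called, with 2 of the 9 and 929 of all genes at an unadjusted p under 0.05. In non-bulge cells none of the 9 and 0.0432% of all genes were called, with 4 of the 9 and 511 of all genes at an unadjusted p under 0.05. The change with age of the difference between undivided bulge and non-bulge cells was called for none of the 9 genes and for 0% of all genes, with 2 of the 9 and 446 of all genes at an unadjusted p under 0.05.

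Different probe sets of a gene mostly gave the same direction. Tested singly, 14 of the 22 probe sets were called above non-bulge cells in undivided cells at PD21 and 13 at PD25, and none was called lower. Of all 22351 probe sets kept, 9.40% and 8.97% were called in these tests, in either direction. For Bgn the 3 probe sets gave 2.55 to 4.43 at PD21 and 3.40 to 4.37 for divided cells between the ages, all called, where 6.16% of all probe sets were called between the ages. For Sdc1 all 4 probe sets and for Sdc4 both were higher in undivided cells at PD21 without being called. Sizes differed more than directions, by up to 5.60 against 2.56 for Cspg4.

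**Figure D4:**
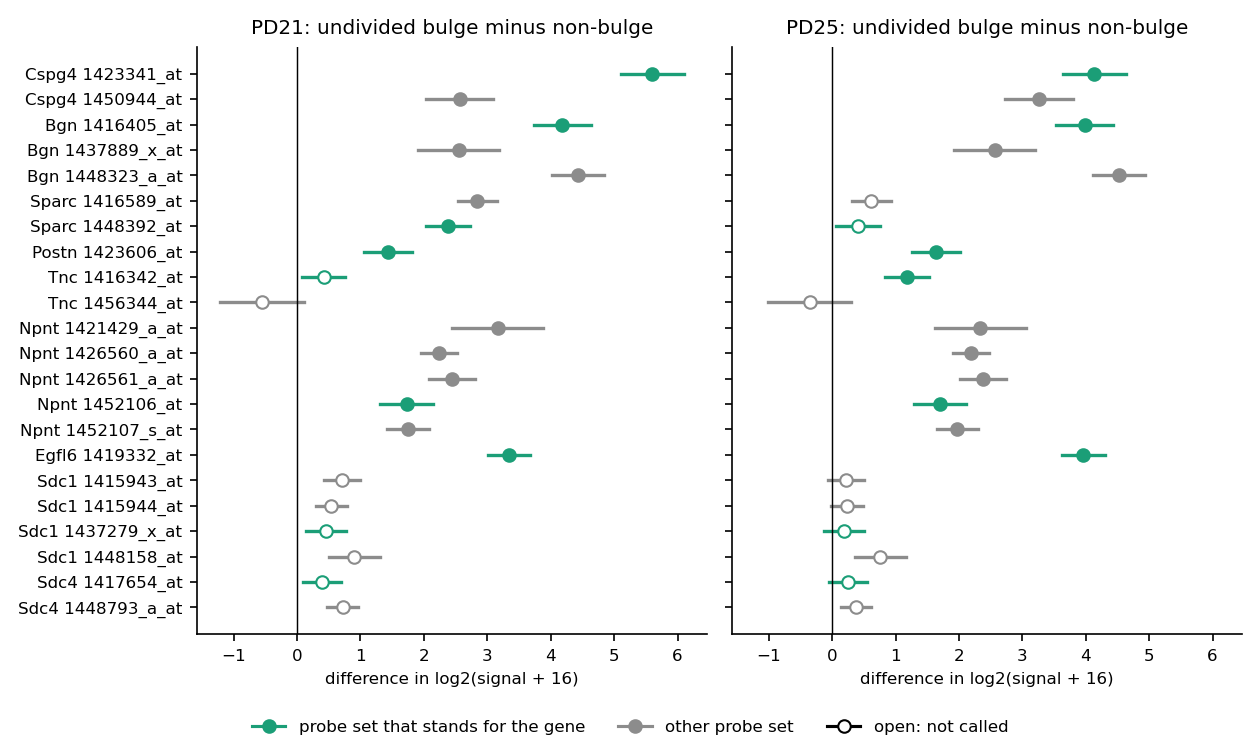
Difference between undivided bulge and non-bulge cells at PD21 (left) and PD25 (right) for each of the 22 tested probe sets, in log2(signal + 16). Lines show the standard error of each fitted value, green marks the probe set that stands for its gene, and open points were not called. Probe sets of Cspg4, Bgn and Npnt are all filled at both ages, those of Sparc at PD21 alone, and those of Sdc1 and Sdc4 at neither.

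Across the 18 arrays the genes grouped by pattern, given as a description since the arrays fall into 6 groups and share mice. Pearson's r was 0.88 between Cspg4 and Bgn, 0.82 between Cspg4 and Egfl6, 0.88 between Postn and Npnt and 0.79 between Sdc1 and Sdc4. It was 0.34 between Cspg4 and Sdc1 and 0.25 between Sparc and Tnc. Among all tested genes, Bnc2 (r = 0.99) and Msrb3 (0.97) were most like Cspg4, Gpr153 (0.94) and Sox9 (0.93) most like Bgn, and Cpne8 (0.98) and Plpp1 (0.97) most like Egfl6. Agrn, the basement membrane proteoglycan agrin, was most like Npnt (0.96), followed by Nfib (0.95). Lifr (0.93) and Efnb2 (0.92) were most like Postn, and Tmbim1 (0.88) and Ndrg2 (0.87) most like Sparc. Gask1b (0.87) and Fhl1 (0.86) were most like Tnc. For the syndecans these were Eif4g2 (0.95) and Sostdc1 (0.93) with Sdc1, and Paip2 (0.92) and Clta (0.91) with Sdc4.

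Other proteoglycans behaved unevenly. Of 14 tested genes of that list, 4 were higher and 1 lower in undivided cells at PD21, compared with non-bulge cells, with a list median of 0.23 against -0.05 for all genes. In that comparison 11.0% of all genes were called in either direction. The heparan sulfate glypican Gpc6 was 5.17 ± 0.80 higher (limma adjusted p = 6.96e-05), Spock2, a secreted testican, 2.27 ± 0.65 and the syndecan Sdc2 2.26 ± 0.51, while the betaglycan Tgfbr3, a co-receptor of TGF-β, had a difference of -2.21 ± 0.45. At PD25 Gpc6 and Sdc2 were again called higher and Tgfbr3 lower, in undivided and in divided cells. In divided against undivided cells at PD21, Gpc6 and Sdc2 were called lower (-3.56 ± 0.80 and -1.68 ± 0.51) and Tgfbr3 higher. Gpc6 was the 1 gene of the list whose division difference was called as changing with age (4.75 ± 1.14, adjusted p = 0.0363).

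Of 15 tested genes for other matricellular and nephronectin-like proteins, 5 were higher and 4 lower in undivided bulge cells at PD21. The list median was 0.51, against -0.05 for all genes. Of all genes tested, 11.0% were called at PD21 and 10.5% at PD25 in this comparison, in either direction. The largest differences were those of Ccn2, connective tissue growth factor, which was 5.02 ± 0.60 higher, of Efemp1, a fibulin (-4.23 ± 0.68), and of the thrombospondin Thbs2 (-2.99 ± 0.82). At PD25 4 were higher and 4 lower, led by Ccn2 (4.88 ± 0.60), Tnxb, tenascin-X (-4.76 ± 0.57), and Efemp1 (-3.93 ± 0.68). Divided cells at PD25 had 6 genes higher and 3 lower, where 8.87% of all genes were called in either direction.

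Enzymes that build and sulfate the sugar chains included 6 higher and 1 lower of 28 tested at PD21. Their list median was 0.46, against -0.05 for all genes. For this and the next 2 lists, the share of all genes called in either direction was 11.0% at PD21 and 10.5% at PD25. Chst11 and Chst14, sulfotransferases of chondroitin and dermatan sulfate, were 3.75 ± 0.73 and 2.79 ± 0.55 higher in undivided bulge cells, and Dse, the epimerase that makes dermatan sulfate, was 2.11 ± 0.54 higher. Chst15, which adds a further sulfate to chondroitin chains, was the gene called lower, at -1.84 ± 0.29. At PD25 4 were higher, led by Chst11 (3.50 ± 0.73) and Dse (2.71 ± 0.54), and Chst15 was again the 1 lower. Among 12 tested receptors, 4 were higher in undivided cells at PD21, led by the integrin chains Itgb8 (2.76 ± 0.44), Itgb6 (2.63 ± 0.41) and Itgb4 (1.17 ± 0.26), and none was lower. At PD25 4 were higher and 1 lower, led by Itgb8 (2.98 ± 0.44), Ptprz1, a receptor phosphatase (-2.35 ± 0.60), and Itga2 (2.02 ± 0.51), while Itgb4 was at 0.03 ± 0.26 (adjusted p = 0.975). Itgb6 was the receptor whose division difference was called as changing with age (2.39 ± 0.58, limma adjusted p = 0.0395). Among 8 tested syndecan partners and sheddases, Prkca was 1.65 ± 0.44 higher and the sheddase Adam10 (-1.07 ± 0.25) and Cask (-0.86 ± 0.26) lower at PD21. At PD25 Sdcbp (0.89 ± 0.28) was the 1 gene of this list that was called. Prkca (1.34 ± 0.44), Adam10 (-0.60 ± 0.25) and Cask (-0.56 ± 0.26) kept their direction there without being called.

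**Figure D5:**
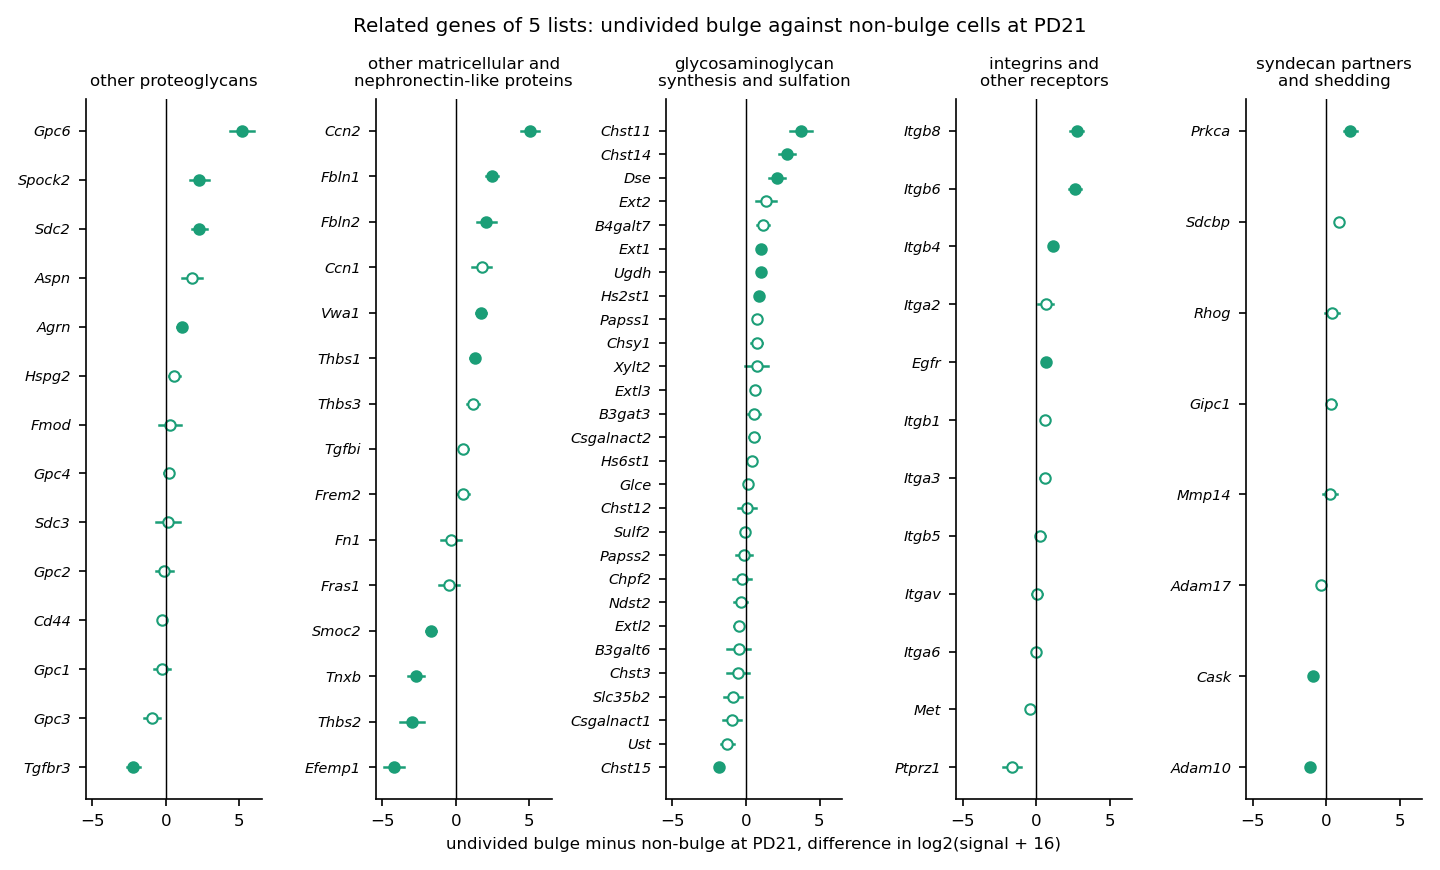
Difference between undivided bulge and non-bulge cells at PD21, in log2(signal + 16), for the tested genes of 5 lists of related genes. Points are fitted differences from 3 mice in each group, lines show standard errors, and open points were not called. Gpc6, Ccn2 and Chst11 lie furthest to the right of their lists, and Tgfbr3, Efemp1 and Chst15 furthest to the left.

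Several of these genes are textbook markers of cells other than keratinocytes, so the defining markers of such cells were read on the same arrays. For dermal fibroblasts, Pdgfra, Lum, Dpt, Fap and Twist2, 5 of 10 markers, were below the array median on all 18 arrays, as was 1 of the Dcn probe sets. Their list still held called genes: in undivided bulge cells at PD21 the collagens Col1a1 (4.09 ± 0.55) and Col5a1 (3.35 ± 0.37) were higher, while Col1a2 (-0.91 ± 0.68) and Col3a1 (-0.38 ± 0.65) were not called. The summed fibroblast marker signal ran from 3086 to 4496 in non-bulge cells, from 3467 to 5598 in undivided and from 2750 to 5935 in divided cells at PD21. At PD25 these sums ran from 2522 to 4385, from 3517 to 3950 and from 3939 to 5142. In non-bulge cells Thy1 was by far the brightest gene of the sum (11.63 ± 0.31 at PD21, log2 scale, SD). The sums can therefore hide changes of the collagens. In divided cells at PD21 Col1a1 was called above non-bulge cells (3.55 ± 0.55), where 0.182% of all genes were called. Against undivided cells Col3a1 was called higher (2.77 ± 0.65) and Col5a1 lower (-1.98 ± 0.37), where 8.28% were called. In divided cells at PD25, where Bgn was highest, Col1a1, Col1a2, Col3a1 and Col5a1 were called higher than in non-bulge cells (2.22 to 3.21) and Thy1 lower, and their part in the Bgn values was not tested. For pericytes and smooth muscle, 3 of 10 markers, Rgs5, Abcc9 and Kcnj8, were below the median on every array, and the summed signal of undivided cells at PD21 (437 to 574) overlapped that of non-bulge cells (508 to 1128), and that of divided cells ran from 856 to 881. At PD25 the sums ran from 515 to 936.5 in non-bulge, from 473 to 865 in undivided and from 677 to 849 in divided cells. None of the 5 tested pericyte genes was called higher in undivided cells at either age, and Tagln was lower at PD21 (-2.004 ± 0.50). At PD25 Tagln (0.845 ± 0.50), Pdgfrb (1.63 ± 0.78) and Mcam (1.02 ± 0.65) were above the non-bulge level without being called. Acta2 (-0.80 ± 0.66) and Notch3 (-0.58 ± 0.495) were below it, also without a call. The part of this list in the Cspg4 values was not tested.

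The genes of the melanocyte list did not share a direction. Its summed signal at PD21 ran from 1169 to 3931 in undivided cells against 654 to 905 in non-bulge cells, and at PD25 from 1122 to 1339 against 250.5 to 637. Mitf, 2.27 ± 0.47 higher in undivided cells at PD21, was the 1 of 4 tested melanocyte genes called there. At PD25 Mitf (2.00 ± 0.47) and Dct (2.22 ± 0.58) were both called. Pmel was -1.01 ± 0.62 at PD21 and -0.20 ± 0.62 at PD25, and Sox10 was 0.88 ± 0.63 and -0.29 ± 0.63, none of them called, and Tyr, Mlana and Kit were below the array median on every array. In divided cells the summed signal ran from 519.7 to 1337 at PD21 and from 1250 to 2064 at PD25. The part of this list in the differences of Cspg4, a gene also known from melanoma cells, was not tested. Of 3 tested Schwann cell and nerve genes, Mbp was lower in undivided cells at both ages (-2.06 ± 0.46 and -2.33 ± 0.46), and at PD25 Erbb3 was lower and Ngfr higher. Of 10 endothelial and 11 immune markers, 1 and 6 were bright enough to be tested, and none was called in undivided bulge cells at PD21 or PD25.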

How the data were processed

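RNA of 18 sorted fractions (5 ng each) was amplified and hybridised to 1-colour Affymetrix arrays of 45101 probe sets. Per the labels, the deposited values are GCOS signal intensities that the authors scaled to a trimmed mean of 500. The sources used here do not give the software version, the sexes of the mice or the sort gates. Gene symbols came from GEO's platform annotation, in which 34945 probe sets have 1 symbol, 932 several and 9160 none listed.

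The intensities as deposited were turned into log2(signal + 16). A probe set was kept if it exceeded the array median on at least 3 arrays, and of several kept for 1 gene the brightest on average was used. A model of 6 group means was fitted to all 18 arrays with limma 3.58.1 in R 4.3.3 (lmFit, eBayes with a mean-variance trend, 12 residual degrees of freedom), and p-values were adjusted by Benjamini-Hochberg over 11569 genes. Age comparisons and differences of differences came from the same fit. All tests are two-sided. The script was tested on simulated data.

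Same-numbered fractions of an age come from the same mouse, per the sample titles. Deviations from the group means correlated within a mouse at r = 0.104 to 0.462 at PD21 and 0.0745 to 0.319 at PD25, so a fit with the mouse as a block was run beside the fit without it. The other alternatives were other pseudocounts, filters, scaling, variance models, probe set rules, array weights, the set of arrays as a block, fits to the compared groups alone and leaving out each array.

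The 10 genes and all lists were chosen with earlier results of these data known. From each list of related genes, up to 3 passing genes with the largest difference in a comparison are named, of marker lists those that pass or are most abundant, and for each gene the 2 genes of highest Pearson correlation. Tgfbr3 and Chst15 at PD21 were named after their values were seen, as the 1 lower gene of their lists. No genome sequence was used, and promoter windows came from RefSeq.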

Additional observations from a re-analysis of the deposited data

Results flagged for a closer look

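For 3 of the 9 genes the difference between divided and undivided bulge cells was itself different at the 2 ages, by the interaction term of the limma fit over all genes. The change from PD21 to PD25 was 3.715 for Bgn, 2.977 for Cspg4 and 2.535 for Egfl6, in log2(signal + 16). Bgn went from lower in divided cells in 3 of 3 mice at PD21 to higher in 2 of 3 mice at PD25. Cspg4 went from lower in 3 of 3 mice to higher in 3 of 3 mice, the latter without a call. Egfl6 was lower in divided cells in 3 of 3 mice at both ages, and less so at PD25. Among the 10 bulge markers, 6 changed in the same direction by the same test, and the part of the bulge marker content of the PD21 divided fraction in these changes was not tested.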

How the results depend on the processing

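The 30 called differences of the 9 genes were refitted under 558 combinations of difference and setting. The call and direction were kept in 520, the call was lost in 38 and the sign changed in 0, and 11 differences were called under another setting alone. The number of genes called for divided bulge minus non-bulge cells at PD21 fell from 1 to 0 with no variance trend (Cspg4), with only the groups compared (adjusted p = 0.301) and with the mean over probe sets. The number for PD25 minus PD21 in undivided bulge rose from 0 to 1 with array weights (Sparc), and that in divided bulge from 3 to 5 with the array set as a block. The number of genes whose difference between divided and undivided cells changed with age rose from 3 to 5 with quantile normalisation, to 6 with the replicate block and to 5 with the array set block. For the difference of undivided cells from non-bulge cells it rose from 0 to 1, Sparc, with either block. In these 2 tests the replicate block called 4.37% and 0.0173% of all genes, against 1.18% and 0% without it. For the other settings the share of all genes is not given here, so those counts have no background. Pairing the fractions of a mouse changed no call other than these and those given beside the results.

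Leaving out each array in turn gave 4 to 6 genes for undivided minus non-bulge cells at both ages. It gave 0 to 1 for divided minus non-bulge cells at PD21 and 5 to 6 at PD25, and 4 to 5 for divided minus undivided cells at PD21. It gave 3 for PD25 minus PD21 in divided cells and 2 to 4 for the change of the division difference between ages. The share of all genes called in each of these refits is not given here, so these counts have no background either. Probe sets near the floor, as those of Dcn and the dimmer Tnc probe set, limit what can be read, and 3 mice in each group limit the precision.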
